A study of Mus musculus with 12 samples.

Results

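The response to lipopolysaccharide (LPS) of macrophages in which Ehd1 had been silenced was measured by comparing 3 LPS-treated libraries (M1-siEHD1) with 3 resting libraries (M0-siEHD1). These are 6 of the 12 libraries of the series. Both groups were bone marrow-derived macrophages, primary cells grown from marrow progenitors, of male C57BL/6J mice aged 8 weeks, and both had received siEhd1, an siRNA against Ehd1. The other 6 libraries were the same cells with a control siRNA (siControl), 3 resting (M0) and 3 LPS-treated (M1), and serve here as the comparison. The series asks what EHD1 does in macrophage inflammation and for the sorting receptor sortilin. Resting libraries came in one count table and LPS-treated libraries in another, so the table and LPS cannot be told apart in any difference given here. The sources used here give no dose or duration of LPS, and the labels do not say whether the 3 libraries of a group came from separate mice or cultures, so the p-values speak only of how far these libraries spread, and that spread may be technical. Genes were followed if they passed a filter on low counts, which kept 12164 of the 24421 genes in the tables.

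LPS is a component of the outer membrane of Gram-negative bacteria. CD14 and MD-2 (Ly96) hand it to Toll-like receptor 4, which signals from the plasma membrane through MYD88 to NF-kB and MAP kinases, and from endosomes through TRIF (Ticam1) to IRF3 and interferon beta. Secreted interferon then acts through its receptor to switch on the interferon-stimulated genes. In macrophages this program is known for cytokine and chemokine release, nitric oxide and itaconate production, a turn to glycolysis and an arrest of proliferation. EHD1 is an ATPase of the endocytic recycling compartment that returns receptors from endosomes to the cell surface.

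Promoters of induced genes are shown first because short motifs of the 2 branches can be read in them. RefSeq promoter windows on GRCm38.p6 ran from 250 bases before to 50 bases after the start of each gene, and 9316 of the tested genes matched one by symbol. The 5 stretches printed here are the 250 bases before the start, 5′ to 3′ along the gene, and capitals mark a match on either strand to the NF-kB core GGGANTTTC or to GAAANNGAA, the core of the interferon-stimulated response element. The first 2 genes, Il6 (chr5:30012864-30013113, plus strand) and Cxcl3 (chr5:90785851-90786100, plus strand), hold the NF-kB core. The other 3, Cxcl10 (chr5:92348890-92349139, minus strand), Cd274 (chr19:29367188-29367437, plus strand) and Saa3 (chr7:46715677-46715926, minus strand), hold the interferon core. Apoe and Rasgrp3, which fell, also hold the interferon core in 1 window each, of 3 windows for Apoe and 2 for Rasgrp3. Not all named genes that fell were looked at in this way.
Il6: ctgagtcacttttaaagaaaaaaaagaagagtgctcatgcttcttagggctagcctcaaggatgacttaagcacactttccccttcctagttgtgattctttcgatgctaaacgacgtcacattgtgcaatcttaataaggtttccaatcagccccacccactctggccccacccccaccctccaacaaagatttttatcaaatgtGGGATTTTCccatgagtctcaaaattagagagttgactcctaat
Cxcl3: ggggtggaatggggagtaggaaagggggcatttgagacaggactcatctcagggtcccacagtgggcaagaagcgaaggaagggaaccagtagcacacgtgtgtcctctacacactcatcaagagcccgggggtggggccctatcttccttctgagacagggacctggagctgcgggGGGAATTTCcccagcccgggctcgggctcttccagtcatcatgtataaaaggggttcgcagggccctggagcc
Cxcl10: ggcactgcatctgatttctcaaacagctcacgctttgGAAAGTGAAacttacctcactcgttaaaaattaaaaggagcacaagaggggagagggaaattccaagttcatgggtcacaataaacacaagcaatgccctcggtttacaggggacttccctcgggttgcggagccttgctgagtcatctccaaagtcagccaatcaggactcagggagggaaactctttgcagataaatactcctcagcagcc
Cd274: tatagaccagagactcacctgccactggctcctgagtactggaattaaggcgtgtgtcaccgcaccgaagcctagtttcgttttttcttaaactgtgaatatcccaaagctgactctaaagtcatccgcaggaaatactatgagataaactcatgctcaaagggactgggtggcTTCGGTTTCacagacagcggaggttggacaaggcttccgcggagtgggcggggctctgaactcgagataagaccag
Saa3: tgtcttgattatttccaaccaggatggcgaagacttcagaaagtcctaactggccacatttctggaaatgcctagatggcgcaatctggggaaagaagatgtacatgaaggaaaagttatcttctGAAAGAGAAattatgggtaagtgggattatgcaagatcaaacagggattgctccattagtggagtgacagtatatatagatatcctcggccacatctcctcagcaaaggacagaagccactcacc
All 5 genes rose after LPS. Il6, an acute-phase cytokine, had 0 counts in every resting library and 43 counts over the LPS-treated libraries, which is at least 17.2-fold higher against a floor of 3 counts over the resting group. Cxcl3, a neutrophil attractant, went from 0.171, 0 and 0.128 CPM at rest to 267, 279.7 and 239 CPM after LPS. Cxcl10, an interferon-inducible T cell attractant, went from 3.46, 2.9 and 5.15 CPM at rest to 112, 125 and 126 CPM after LPS, and Cd274, which encodes the checkpoint ligand PD-L1, went from 44, 40.9 and 39.8 CPM at rest to 506, 461 and 469 CPM after LPS. No library of one group reached into the range of the other for any of the 5. The same held for 71.2% of all tested genes, and Cxcl3 and Saa3 were named in part because of it.

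Over whole gene sets, the NF-kB core was found in 2.7% of the 1037 promoters of genes called higher at least 2-fold, in 0.5997% of the 1334 promoters of genes called lower at least 2-fold, in 1.063% of the 11858 promoters of all tested genes, and in 1.111% of all 32851 promoters of 300 bases. The interferon core was found in 14.08%, 5.847%, 7.32% and 8.56% of the same sets. Of the 62 promoters of the interferon-stimulated list, 30 held the interferon core, and of the 19 promoters of the chemokine list, 4 held the NF-kB core and 5 the interferon core. The E2F motif TTTCCCGC, known from genes of DNA synthesis, was in 0.5786% of promoters of genes higher, 2.249% of genes lower, 1.982% of all tested genes and 1.068% of all promoters. It was present in 5 of 29 promoters of the DNA replication list and in 0 of 28 of the mitotic list. The AP-1 motif TGANTCA was in 10.13% of promoters of genes higher, 5.997% of genes lower, 5.254% of all tested genes and 7.808% of all promoters. It was in 13 of 62 promoters of the interferon-stimulated list, so the NF-kB and interferon cores were not the only motifs more frequent among genes higher. CRE (TGACGTCA) and the antioxidant response element (TGACNNNGC) were in 2.411% and 13.69% of promoters of genes higher, against 3.103% and 14.63% of all tested genes. Both strands were searched, the motifs may overlap, and a match describes letters only.

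The 6 siEhd1 libraries held 18572725 to 22545272 counts each. No 2 libraries of a group were alike within counting noise (their chi-square divided by its degrees of freedom ran from 2.99 to 23.6), and the largest value belonged to replicates 1 and 3 of the LPS-treated siControl group. All 12 macrophage markers were present in every siEhd1 library, with a summed level of 25818 to 27450 CPM (TMM-scaled counts, relative to library size) at rest and 41049 to 42865 CPM after LPS. All 10 dendritic cell markers and 10 of 11 lymphocyte markers stayed below 5 CPM, the exception being Cd4. Neutrophil markers summed to 14.4 to 21.4 CPM at rest and 77.6 to 100.3 CPM after LPS, with 10 of 11 below 5 CPM and Mmp8 the exception. Erythroid, megakaryocyte and mast cell markers summed to 19.4 to 20.2 and 533.9 to 585.7 CPM, with Pf4 the one member of 11 above 5 CPM. Stromal and endothelial markers summed to 162.0 to 189.7 and 74.3 to 84.0 CPM, with 8 of 12 below 5 CPM. The lower sum came from Vwf, at 146.0 to 166.7 CPM at rest and 29.8 to 31.9 CPM after LPS, whereas 6 of the 9 tested stromal and endothelial markers were called higher. The part of these other marker lists in the differences was not tested.

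Ehd1 itself, the target of the siRNA (ENSMUSG00000024772.9, chromosome 19 from 6276725 to 6300096, plus strand, GRCm38), stood at 33.6, 32 and 29 CPM in the resting and 282, 319 and 304 CPM in the LPS-treated libraries with siEhd1. Both groups lay below their siControl counterparts, which measured 53.3, 52.1 and 54.4 CPM at rest and 678, 631 and 550.2 CPM after LPS. The gene rose with siEhd1 (log2 fold change 3.26, SE 0.08, edgeR adjusted p = 3.3e-18) and with siControl (log2 fold change 3.54), and the difference between these changes did not pass the test (-0.28, SE 0.10, edgeR adjusted p = 0.12), although it did without replicate 3 of the LPS-treated siControl group. Silenced cells after LPS held a mean of 302 CPM of Ehd1, above the 53.2 CPM of resting siControl cells. Ehd4, a paralog on endosomes, fell (log2 fold change -0.75, SE 0.05, edgeR adjusted p = 1.2e-10), from a mean of 549 to 327 CPM. The paralogs Ehd2 and Ehd3 had too few counts to be tested, with 21 and 8 counts over the resting and 8 and 2 counts over the LPS-treated siEhd1 libraries.

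Sort1, which encodes sortilin, went from 63.3, 75 and 74.2 CPM at rest to 12.5, 14.9 and 15.3 CPM after LPS with siEhd1 (log2 fold change -2.32, SE 0.08, edgeR adjusted p = 6.0e-16; ENSMUSG00000068747.14, chromosome 3 from 108284082 to 108361511, plus strand). With siControl it measured 101, 102 and 104 CPM at rest and 14.8, 16.7 and 14.7 CPM after LPS, so the LPS-treated libraries of both siRNAs came to similar low levels from different resting levels. The fall was smaller with siEhd1 by 0.41 on the log2 scale (edgeR adjusted p = 0.037). That call was lost in 9 of 18 alternatives, 8 of them the removal of a single library, with adjusted p up to 0.12.

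Across all genes, LPS-treated siEhd1 cells had 4005 genes called higher (32.9%) and 4139 called lower (34.0%), where called means an adjusted p below 0.05 by edgeR's quasi-likelihood test over 12164 genes. At least 2-fold changes numbered 1067 higher (8.77%) and 1407 lower (11.6%). Increases reached further than decreases. At 16-fold or more there were 156 higher and 131 lower, at 64-fold 65 and 38, and at 256-fold 32 and 6. The libraries of the 2 groups did not overlap for 8655 genes (71.2%), so a lack of overlap by itself sets no gene apart here. In bulk RNA, fewer cells of a kind and less RNA per cell cannot be told apart. When counts were scaled by library size alone, the median gene moved from -0.02 to -0.24 on the log2 scale and the split became 2499 higher and 6244 lower, so small changes depend on the scaling. With most genes called, a list whose members rise and fall in shares near those of all genes is not set apart by its counts. The plot of single genes by library shows the range of behaviours described in the paragraphs that follow.

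**Figure D1:**
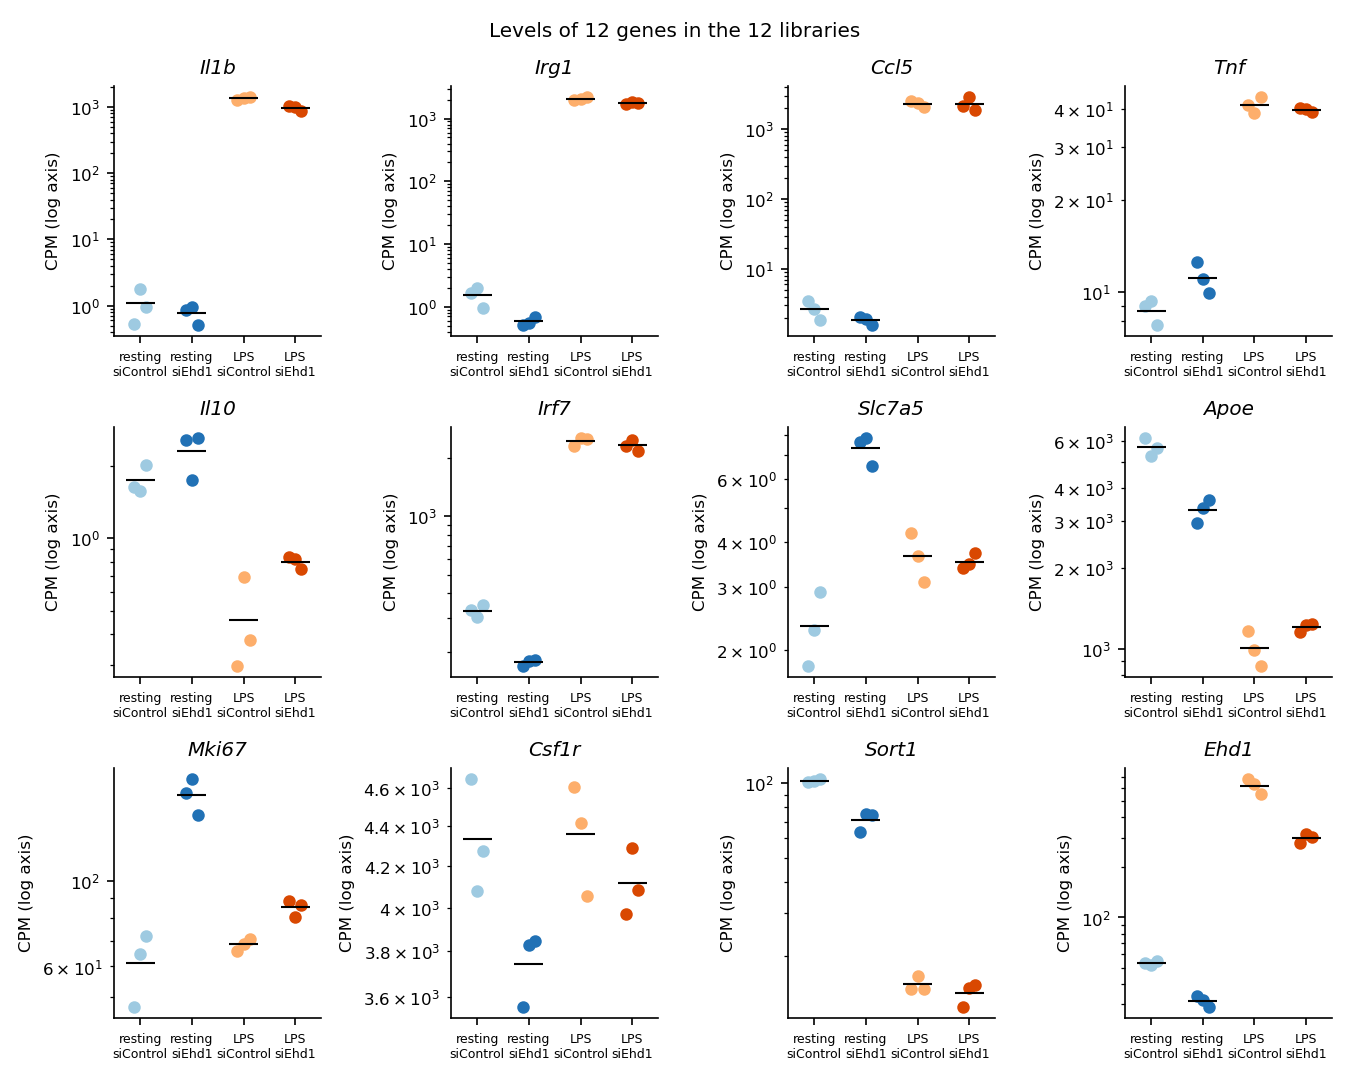
Levels of 12 genes in all 12 libraries, in CPM on log axes that do not start at 0, with 1 panel per gene. Dots are libraries, 3 per group, and black bars are group means. Il1b, Irg1, Ccl5, Tnf, Irf7 and Ehd1 sit higher and Il10, Apoe and Sort1 lower in the LPS-treated libraries of both siRNAs, Slc7a5 and Mki67 are lower after LPS with siEhd1, and the Csf1r groups overlap with siControl and not with siEhd1.

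The steepest increases were in genes that were close to silent at rest. Serpinb2, an inhibitor of plasminogen activators (ENSMUSG00000062345.10, chromosome 1 from 107511423 to 107535478, plus strand), had 0 counts in all 3 resting libraries and 8261 counts after LPS, at least 3313-fold higher. Saa3, an acute-phase apolipoprotein (ENSMUSG00000040026.8, chromosome 7 from 46711998 to 46715700, minus strand), went from 0.641, 0.427 and 0.724 CPM at rest to 10853, 8998 and 10565 CPM after LPS. Nos2, the inducible nitric oxide synthase (ENSMUSG00000020826.8, chromosome 11 from 78920787 to 78960254, plus strand), had 2 counts over the resting and 10117 over the LPS-treated libraries, a ratio of 6086 (95% counting interval 1684 to 50262) after scaling. Il1b, which encodes interleukin-1 beta (ENSMUSG00000027398.13, chromosome 2 from 129364570 to 129371139, minus strand), went from 0.854, 0.939 and 0.511 CPM at rest to 1029, 1006 and 879 CPM after LPS (log2 fold change 10.29, SE 0.19, edgeR adjusted p = 3.3e-15). Ccl5, a chemokine for T cells and monocytes, went from 2.05, 1.92 and 1.58 CPM at rest to 2172, 2861 and 1884 CPM after LPS (log2 fold change 10.28, SE 0.25, edgeR adjusted p = 3.9e-11).

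The formyl peptide receptors Fpr1 and Fpr2, which sense bacterial peptides, had 3 and 3 resting counts, and their LPS ratios were 5093 (95% counting interval 1742 to 24699) and 3135 (95% counting interval 1072 to 15207). Cd38, an ectoenzyme that consumes NAD, went from 0.0427, 0.0427 and 0.0852 CPM at rest to 223, 224 and 206 CPM after LPS. Lcn2, which withholds iron from bacteria by binding siderophores, went from 0.171, 0.0427 and 0.128 CPM at rest to 231, 262 and 229.9 CPM after LPS. Marco, a scavenger receptor for bacteria, went from 0.0854, 0 and 0.0852 CPM at rest to 58, 61.1 and 54.7 CPM after LPS, and Mmp14, a membrane-bound matrix metalloprotease, went from 0.854, 1.24 and 0.894 CPM at rest to 943, 1060.1 and 1039 CPM after LPS. Rasgrp1, a Ras activator, and Tarm1, a receptor of myeloid cells, had 1 and 3 counts at rest and ratios of 2759 (95% counting interval 495 to 109014) and 1326 (95% counting interval 453 to 6433). Genes with 0 counts in every resting siEhd1 library that were called higher numbered 21. Serpinb2 was the only one of them that reached 5 CPM, and the next by level were Il23r, U90926, Robo2 and Gpr55, with 248, 220, 175 and 139 counts after LPS.

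The largest decreases reached genes with varied roles. Nptx1, a secreted pentraxin, went from 324, 324 and 281 CPM at rest to 0.786, 0.726 and 0.287 CPM after LPS (log2 fold change -8.96, SE 0.35, edgeR adjusted p = 1.2e-08). Hpgd, which inactivates prostaglandins, went from 58.6, 61.7 and 76.9 CPM at rest to 0.295, 0.0484 and 0.229 CPM after LPS (log2 fold change -8.4, SE 0.27, edgeR adjusted p = 6.4e-12). Slco2b1, an organic anion transporter, went from 24.3, 31.8 and 32 CPM at rest to 0.0491, 0.145 and 0.0574 CPM after LPS. Angptl4, an inhibitor of lipoprotein lipase, went from 8.84, 12 and 11.8 CPM at rest to 0.147, 0.0968 and 0 CPM after LPS. Each of these 4 genes stood below 1 CPM in all LPS-treated libraries.

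Il1rl1, the receptor of interleukin-33, had 370 counts at rest and 2 after LPS, a resting level 154 (95% counting interval 42.3 to 1274) times the LPS level. Cmah, the hydroxylase that makes N-glycolylneuraminic acid, Pgm5, Cd207 (langerin) and Samd4 likewise kept 2, 3, 3 and 3 counts after LPS, from 606, 753, 355 and 373. The regulators Tox2, Hr, Rasgrp3 and Zbtb16 and the receptors Gpr34 and Gprc5c fell by log2 fold changes of -7.12, -6.76, -6.6, -6.31, -6.61 and -6.47. In all, 17 genes called lower had 0 counts in every LPS-treated siEhd1 library.

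The receptor complex for LPS was itself altered. Of the TLR4 complex, its adaptors and proximal kinases there were 12 of 19 tested members called higher and 2 called lower (median log2 fold change 0.42), against a median of -0.02 over all tested genes. The shares were 63.2% and 10.5%, against 32.9% and 34.0% of all genes. By library size alone 10 were higher and 4 lower (median 0.20). Tlr4 went from 96.8, 107 and 107 CPM at rest to 137, 142 and 138 CPM after LPS (log2 fold change 0.43, SE 0.05, edgeR adjusted p = 4.2e-07), and its co-receptor Cd14 went from 376, 445 and 394 CPM at rest to 1115, 1218 and 1029.8 CPM after LPS (log2 fold change 1.47, SE 0.07, edgeR adjusted p = 1.3e-13). Myd88, the shared adaptor, rose by 1.25 on the log2 scale, and Ikbke, an IRF3 kinase, by 2.1. The largest change in the list was in a brake, Irak3, an inactive kinase of the IRAK family that holds back MYD88 signalling, which went from 26.1, 28.4 and 27.7 CPM at rest to 246, 269 and 251 CPM after LPS (log2 fold change 3.22, SE 0.07, edgeR adjusted p = 4.2e-19). Irak1 and Tirap were the 2 members called lower, at -0.16 and -0.17, and both calls were lost without replicate 1 of the LPS-treated siEhd1 group (adjusted p up to 0.070 for Irak1 and 0.082 for Tirap over the alternatives).

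Of 10 other Toll-like receptors tested, 4 were called higher and 3 lower, shares close to the 32.9% and 34.0% of all genes, with a median of 0.04 that was -0.19 by library size alone. Tlr2, a receptor for bacterial lipopeptides, went from 67.7, 75.5 and 77.8 CPM at rest to 447, 497 and 486 CPM after LPS (log2 fold change 2.69, SE 0.07, edgeR adjusted p = 6.7e-18), and its partner Tlr1 rose by 1.71. Tlr3, for double-stranded RNA, rose by 1.22. The endosomal nucleic acid receptors Tlr9 and Tlr13 fell, at -0.71 and -0.57.

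NF-kB feedback genes rose together, with 19 of 24 tested members called higher and 1 called lower (median log2 fold change 1.21). Nfkbia, the inhibitor IkB alpha, went from 40.7, 41 and 44.4 CPM at rest to 242, 223 and 224 CPM after LPS (log2 fold change 2.45, SE 0.07, edgeR adjusted p = 2.4e-17), Traf1, an adaptor of TNF receptors, went from 16.7, 15.4 and 16.2 CPM at rest to 101, 103 and 105 CPM after LPS, and the ubiquitin ligase gene Birc3 rose from a mean of 62.4 to 228 CPM. Rel, a subunit, was the one member called lower (-0.51). Feedback genes of MAP kinase and cytokine signalling were mixed. Among MAP kinase phosphatases and SOCS genes, 8 of 15 were called higher and 5 lower (median log2 fold change 0.29). Those shares were 53.3% and 33.3%, against 32.9% and 34.0% of all genes. By library size alone 7 were higher and 6 lower (median 0.07). Socs3, an inhibitor of receptors that use gp130, went from 1.88, 1.84 and 1.92 CPM at rest to 588, 606 and 607 CPM after LPS (log2 fold change 8.32, SE 0.15, edgeR adjusted p = 1.8e-15), and Socs1, which blocks JAK kinases, rose by 4.81, whereas Socs6 and Socs5 fell by log2 fold changes of -1.26 and -0.64.

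Immediate early transcription factors mostly stood lower in LPS-treated cells, with 5 of 18 tested members called higher and 11 called lower (median log2 fold change -0.49). Egr3 went from 5.42, 5.25 and 4.94 CPM at rest to 0.0491, 0.242 and 0.115 CPM after LPS (log2 fold change -5.19, SE 0.32, edgeR adjusted p = 8.4e-12), and Klf4, a factor of macrophage polarization, went from 42.1, 47.7 and 39.9 CPM at rest to 17.9, 18 and 16.3 CPM after LPS. Ier3 went the other way, at a mean of 5.86 CPM at rest and 133 CPM after LPS (log2 fold change 4.51, SE 0.07, edgeR adjusted p = 3.8e-21), as did the AP-1 member Fosl2 (1.32).

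Cytokine genes differed widely in level. Of inflammatory cytokines and their receptors, 25 of 29 were called higher and 4 lower (median log2 fold change 1.44), and without replicate 3 of the resting siEhd1 group 27 of 31 were higher and 2 lower. Tnf went from 12.5, 11 and 9.92 CPM at rest to 40.5, 40.1 and 39.1 CPM after LPS (log2 fold change 1.84, SE 0.08, edgeR adjusted p = 3.6e-14), a modest change beside Il1b, which rose 1256-fold, and Il1a, which went from 0.171, 0.0427 and 0.128 CPM at rest to 58.1, 56.7 and 53.6 CPM after LPS. Il10, an anti-inflammatory cytokine, fell from 2.3 to 0.801 CPM (log2 fold change -1.51, SE 0.26, edgeR adjusted p = 2.6e-05). Ifnb1 and Il12b, which encode interferon beta and the p40 subunit of interleukins 12 and 23, were below the filter, with 2 and 1 counts over the resting and 21 and 23 over the LPS-treated libraries, ratios of 12.6 (95% counting interval 3.09 to 111) and 27.7 (95% counting interval 4.49 to 1139.9). Thus IL-1 transcripts were abundant in the treated libraries while transcripts of Il6, Il10, Il12b and Ifnb1 were each at under 1 CPM. Receptor genes rose too, among them Il4ra, which went from 95.2, 104 and 107 CPM at rest to 1107, 1147 and 1186 CPM after LPS, and the interferon receptor Ifnar1 (1.3), whereas Ifngr1 fell slightly (-0.28).

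Chemokine genes had the second highest median among the lists, 2.83, with 21 of 26 called higher and 4 lower. Ccl12, a monocyte attractant, went from 0.171, 0.0427 and 0.0426 CPM at rest to 50.2, 45.8 and 46.9 CPM after LPS. Ccl8, another, went from 0.0427, 0.0427 and 0.128 CPM at rest to 34.9, 36.4 and 36.7 CPM after LPS. Ccl2, the main ligand of CCR2, went from 33.1, 27.4 and 16.2 CPM at rest to 304, 310.2 and 259 CPM after LPS (log2 fold change 3.51, SE 0.32, edgeR adjusted p = 9.7e-06). Several chemokine receptor genes fell: Cx3cr1, the fractalkine receptor, went from 82.9, 97.4 and 95.9 CPM at rest to 21.9, 22.2 and 19.8 CPM after LPS (log2 fold change -2.11, SE 0.08, edgeR adjusted p = 8.4e-15), and Ccr2 fell by -1.14 on the log2 scale. Cxcr4 fell from 286 to 168 CPM.

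Interferon-stimulated genes rose almost without exception. Of 70 tested interferon-stimulated genes, 68 were called higher and 1 lower, with a median log2 fold change of 1.95. Irf7, which amplifies interferon production, went from 169, 179 and 182 CPM at rest to 2301, 2469 and 2173 CPM after LPS (log2 fold change 3.71, SE 0.07, edgeR adjusted p = 5.7e-20; ENSMUSG00000025498.15, chromosome 7 from 141262706 to 141266481, minus strand). Zbp1, a sensor of Z-form nucleic acids, went from 15, 15.1 and 18.5 CPM at rest to 271, 292 and 296 CPM after LPS, and Ifi205, of the DNA-sensing p200 family, went from 12.9, 10.8 and 12.5 CPM at rest to 232, 224 and 220.3 CPM after LPS. Aim2, a DNA sensor, was the exception, at -0.24, a call lost without replicate 1 or 3 of the resting or replicate 2 of the LPS-treated siEhd1 group (adjusted p up to 0.10). Guanylate-binding proteins and immunity-related GTPases, which attack vacuoles of intracellular pathogens, had 15 of 16 members called higher and Gbp8 lower (-0.97), with a median of 2.97. Gbp6 went from 4.83, 4.83 and 5.66 CPM at rest to 192, 184 and 190.4 CPM after LPS, Gbp5 went from 3.03, 3.46 and 4.81 CPM at rest to 77.3, 83.6 and 83.1 CPM after LPS, and Gbp10 went from 0.94, 1.02 and 0.894 CPM at rest to 37.5, 33.8 and 40.2 CPM after LPS. Several of these genes have close copies, and reads may have been split between them.

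Antigen presentation divided by class. All 19 tested genes of MHC class I loading and the immunoproteasome were called higher (median 1.16), among them the peptide transporter Tap1, which went from 71.8, 77.4 and 79.7 CPM at rest to 251, 273 and 261 CPM after LPS, the immunoproteasome subunit Psmb8 (1.42) and the class Ib gene H2-T24 (2.01). Of MHC class II and costimulatory genes, 5 of 18 were called higher and 8 lower (median log2 fold change -0.11). These shares were 27.8% and 44.4%, against 32.9% and 34.0% of all genes. Within that list Cd274 (log2 fold change 3.53, SE 0.08, edgeR adjusted p = 5.3e-19), the costimulatory receptor Cd40 (2.46) and the adhesion molecule Icam1 (2.17) rose. No class II gene of the list was called higher.

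**Figure D2:**
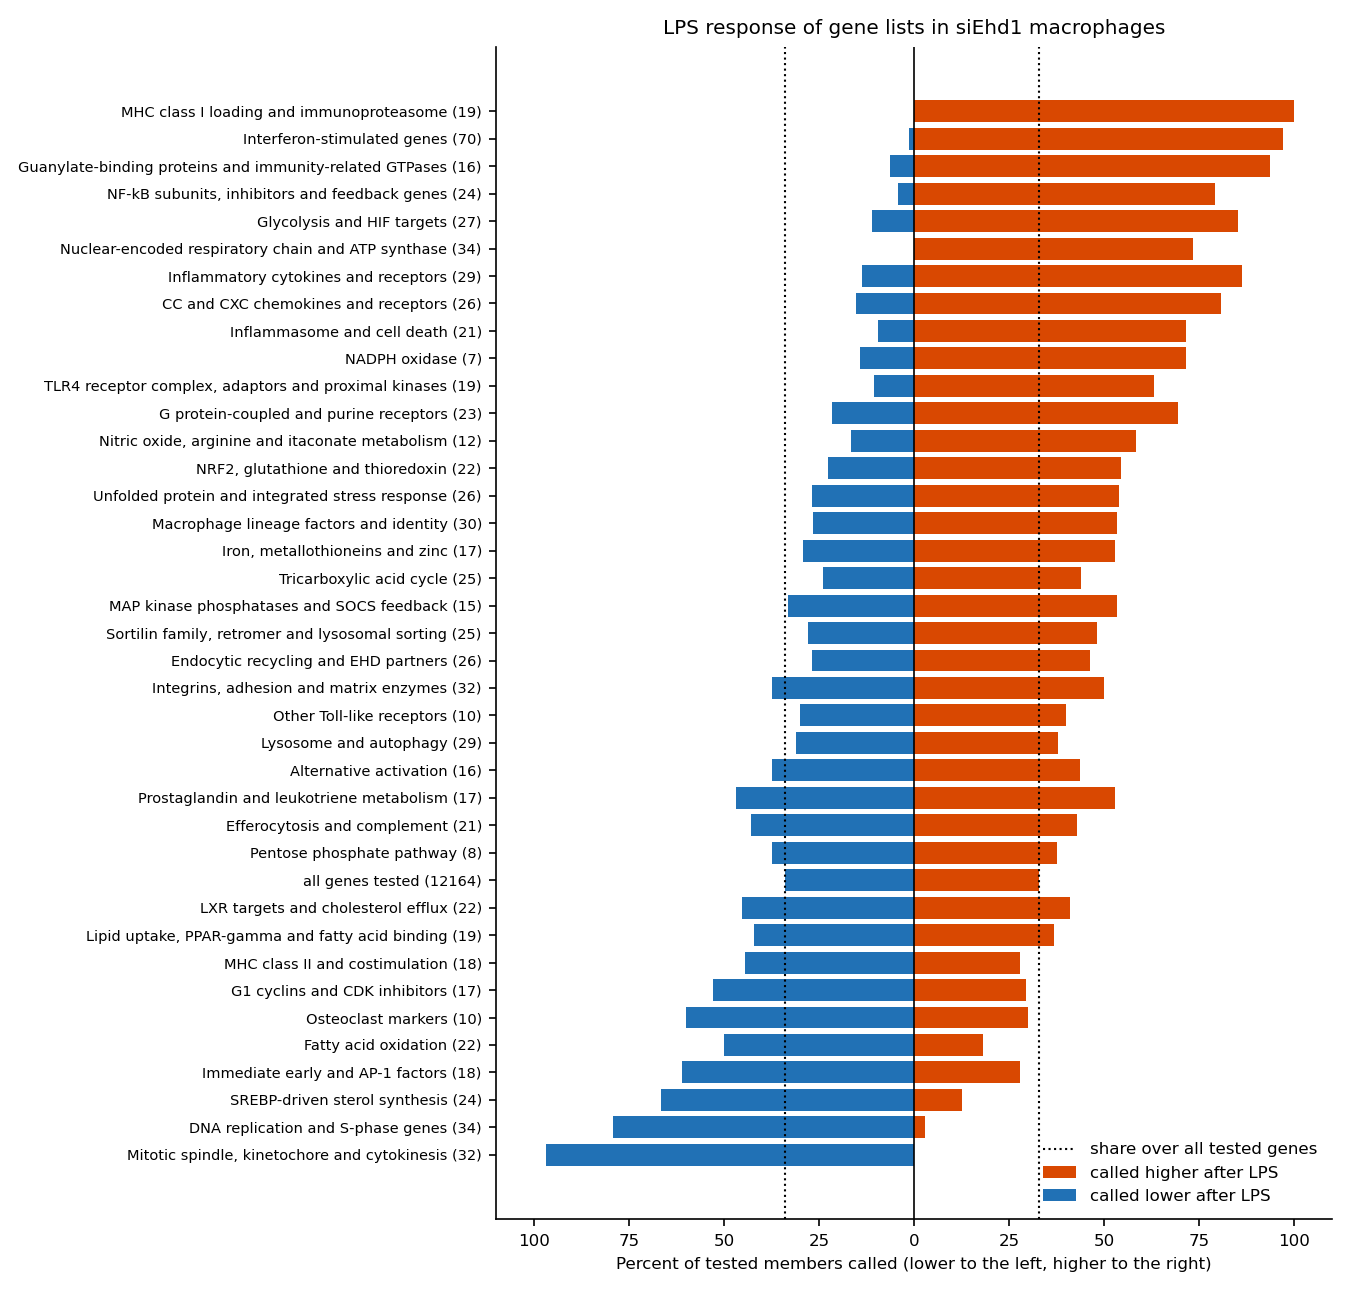
Share of tested members of 38 gene lists and of all genes called higher (right, orange) or lower (left, blue) after LPS with siEhd1, in percent, with the number tested in brackets and dotted lines at the shares over all 12164 genes. Lists are sorted by the difference of the shares, from MHC class I loading, with 19 of 19 higher, to mitotic genes, with 31 of 32 lower. By library size alone the median of 9 lists near the middle changes sign.

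Arginine and itaconate metabolism held some of the largest changes. Irg1 (also called Acod1), which makes the antimicrobial metabolite itaconate, went from 0.513, 0.555 and 0.681 CPM at rest to 1707, 1811 and 1771 CPM after LPS (log2 fold change 11.55, SE 0.13, edgeR adjusted p = 2.5e-23). Both arginases rose, Arg1 from 0.384 to 87.7 CPM and Arg2 from 0.427 to 37.8 CPM, together with Gch1, which supplies the cofactor of nitric oxide synthase (1.88). The polyamine genes Odc1 and Sat1 fell by log2 fold changes of -0.61 and -0.81. In all, 7 of 12 tested genes of nitric oxide, arginine and itaconate metabolism were called higher and 2 lower.

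Prostaglandin metabolism genes moved in both directions, with 9 of 17 tested members called higher and 8 lower (52.9% and 47.1%, against 32.9% and 34.0% of all genes). Ptgs2 (cyclooxygenase-2) went from 0.769, 0.939 and 0.554 CPM at rest to 50.3, 52.4 and 44.9 CPM after LPS (log2 fold change 6.02, SE 0.15, edgeR adjusted p = 1.2e-17), and Ptges, the inducible prostaglandin E synthase, went from 1.07, 0.726 and 0.937 CPM at rest to 259.7, 289 and 276 CPM after LPS (log2 fold change 8.23, SE 0.12, edgeR adjusted p = 3.7e-21). Pla2g4a, which frees arachidonic acid, rose by 2.14. Against these, Ptgs1 (cyclooxygenase-1) went from 24.4, 18.2 and 20.1 CPM at rest to 1.97, 1.74 and 2.12 CPM after LPS, Hpgds, which makes prostaglandin D2, went from 244, 252 and 269 CPM at rest to 79.4, 72.7 and 76.9 CPM after LPS, and Hpgd fell as given earlier.

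Among inflammasome and cell death genes, 15 of 21 were called higher and 2 lower (median log2 fold change 0.95). Mefv (pyrin) went from 8.8, 8.03 and 8.69 CPM at rest to 112, 113 and 130.1 CPM after LPS, the death receptor Fas went from 2.52, 2.69 and 3.32 CPM at rest to 36.5, 32.3 and 36.9 CPM after LPS, and Cflar, a brake on caspase-8, went from 104, 98.8 and 103 CPM at rest to 504, 454 and 478 CPM after LPS. Nlrp1b and the pro-apoptotic gene Bcl2l11 fell, by log2 fold changes of -1.48 and -0.87.

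Glycolytic transcripts were higher after LPS. Of glycolytic genes and HIF targets, 23 of 27 were called higher and 3 lower (median log2 fold change 1.63). Hif1a, the regulator, went from 91.2, 96.2 and 88.6 CPM at rest to 652, 682 and 657 CPM after LPS (log2 fold change 2.85, SE 0.06, edgeR adjusted p = 9.1e-20). Pfkfb3, which sets the flux-controlling activator of phosphofructokinase, went from 37.9, 41.6 and 41.9 CPM at rest to 886, 873 and 899 CPM after LPS (log2 fold change 4.45, SE 0.07, edgeR adjusted p = 2.0e-21), and Bnip3, a mitophagy receptor, went from 23.7, 25.8 and 25.3 CPM at rest to 140.3, 144 and 138 CPM after LPS. The glucose transporter gene Slc2a3 and Vegfa fell, at -1.18 and -0.85.

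Fatty acid oxidation genes were lower on balance, with 4 of 22 tested members called higher and 11 called lower (median log2 fold change -0.25). Cpt1a, which admits long-chain fatty acids to mitochondria, went from 206, 219 and 210.1 CPM at rest to 104, 106 and 103 CPM after LPS (log2 fold change -1.02, SE 0.06, edgeR adjusted p = 5.2e-12), and the dehydrogenase Acadm and thiolase Acaa2 fell by log2 fold changes of -0.71 and -0.75. Nuclear-encoded respiratory chain genes showed small increases, 25 of 34 called higher and 0 lower (median 0.32). By library size alone these counts were 15 and 6. Cox5a, Atp5o and Cox5b led them, at 1.17, 0.84 and 0.66. The tricarboxylic acid cycle was mixed, with 11 of 25 called higher and 6 lower and a median of 0.11 that was -0.11 by library size alone. Its shares were 44% and 24%, against 32.9% and 34.0% of all genes, and by library size alone 8 were higher and 10 lower. Pcx, which feeds the cycle from pyruvate, rose by 1.48 and Mdh1 fell by a log2 fold change of -0.50. In the pentose phosphate pathway 3 of 8 were called higher and 3 lower, with Shpk, a kinase that restrains the pathway, lower at -0.58. Both shares, 37.5%, lay near those of all genes. By library size alone 1 was higher and 3 lower, and the median of 0.17 became -0.05.

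Sterol synthesis fell, with 3 of 24 tested members called higher and 16 called lower (median log2 fold change -0.47). Cyp51 went from 33.5, 33.2 and 29.5 CPM at rest to 8.79, 9.63 and 9.98 CPM after LPS (log2 fold change -1.76, SE 0.12, edgeR adjusted p = 8.7e-10), Idi1 went from 23.1, 24.3 and 22.7 CPM at rest to 8.7, 7.55 and 8.15 CPM after LPS, and Msmo1 fell by a log2 fold change of -1.06. Mvd was among the 3 called higher, at 0.78. The members of 3 metabolic lists are drawn with their errors.

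**Figure D3:**
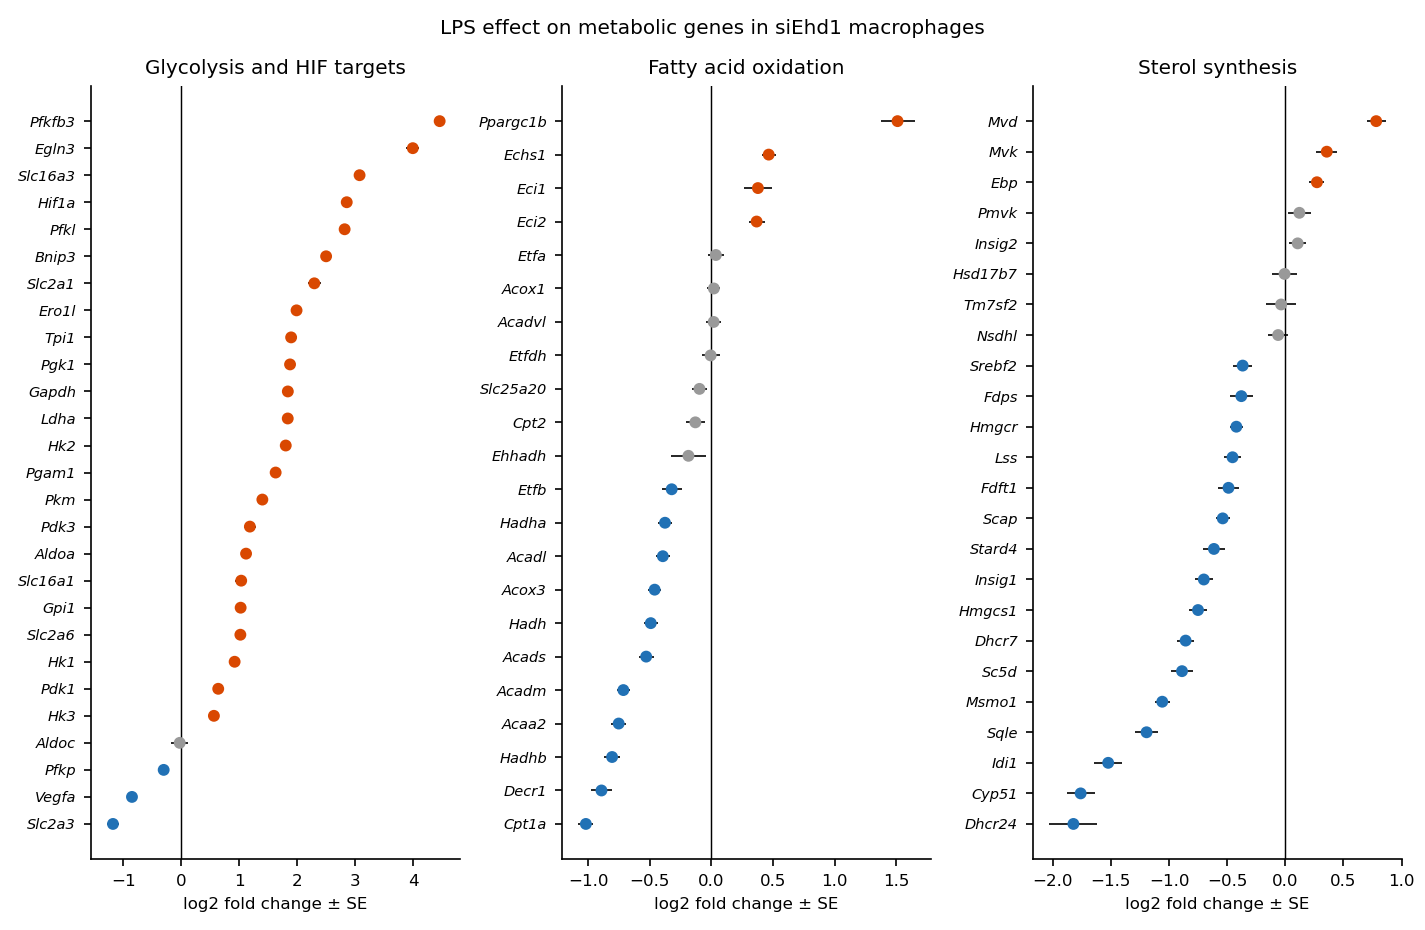
Log2 fold change of LPS-treated over resting siEhd1 cells for tested members of 3 metabolic lists, with SE bars, orange for called higher, blue for called lower and grey for not called. Glycolytic genes lie mostly to the right of 0 (23 of 27 called higher), and fatty acid oxidation and sterol synthesis genes mostly at or to the left of it (11 of 22 and 16 of 24 called lower).

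Of LXR targets and cholesterol efflux genes, 9 of 22 were called higher and 10 lower (40.9% and 45.5%, against 32.9% and 34.0% of all genes), with a median of 0.07 that was -0.16 by library size alone. Abca1, the transporter that loads cholesterol onto apolipoprotein A1, went from 373, 396 and 413 CPM at rest to 1397, 1405 and 1419 CPM after LPS (log2 fold change 1.84, SE 0.07, edgeR adjusted p = 1.2e-15), and the receptor gene Nr1h3 (LXR alpha) went from 22.1, 21.4 and 22.1 CPM at rest to 147, 154 and 154 CPM after LPS. Apoe, a carrier of effluxed cholesterol, went from 2959, 3374 and 3589 CPM at rest to 1161, 1229.6 and 1238 CPM after LPS (log2 fold change -1.45, SE 0.10, edgeR adjusted p = 6.8e-10). Lipa, the lysosomal acid lipase, went from 1759.9, 1925 and 1817 CPM at rest to 380.3, 374 and 345 CPM after LPS (log2 fold change -2.32, SE 0.08, edgeR adjusted p = 3.2e-16), and Cyp27a1, which makes the LXR ligand 27-hydroxycholesterol, fell from 51.5 to 6.63 CPM.

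Of lipid uptake and fatty acid binding genes 7 of 19 were called higher and 8 lower, with a median of 0.07 that was -0.15 by library size alone. These shares, 36.8% and 42.1%, lay near the 32.9% and 34.0% of all genes. The scavenger receptor gene Msr1 went from 126, 117 and 99.7 CPM at rest to 1075, 1016 and 1039 CPM after LPS (log2 fold change 3.19, SE 0.08, edgeR adjusted p = 1.0e-16), and Acsl1, which activates fatty acids, went from 71.5, 76 and 70.2 CPM at rest to 1037, 1135 and 1108 CPM after LPS. Pparg, the nuclear receptor of lipid storage, went from 87.5, 96.1 and 90.5 CPM at rest to 4.91, 5.76 and 5.45 CPM after LPS (log2 fold change -4.09, SE 0.11, edgeR adjusted p = 2.3e-16). Cd36, the receptor for oxidized lipoproteins, stood at 974, 1048 and 828 CPM in the resting and 1117, 1156 and 961 CPM in the LPS-treated libraries and was not called (edgeR adjusted p = 0.53); its libraries overlapped.

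Cell cycle genes were lower after LPS in siEhd1 cells. Of 32 tested genes of the mitotic spindle, kinetochore and cytokinesis, 31 were called lower and 0 higher (median -1.34). Kif23, a motor of cytokinesis, went from 49.9, 51.1 and 45.1 CPM at rest to 10.2, 8.13 and 8.72 CPM after LPS (log2 fold change -2.43, SE 0.09, edgeR adjusted p = 1.5e-15). Ccnb2, a mitotic cyclin, went from 26, 29.3 and 27.7 CPM at rest to 5.6, 6.63 and 7.17 CPM after LPS, and the checkpoint kinase Bub1b went from 37.7, 39.6 and 33 CPM at rest to 14.4, 13.9 and 14.9 CPM after LPS. Mki67, the proliferation marker Ki-67, went from 168, 183 and 148 CPM at rest to 88.6, 80.7 and 86.7 CPM after LPS (log2 fold change -0.96, SE 0.13, edgeR adjusted p = 5.2e-05).

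DNA replication genes were also lower, with 27 of 34 called lower and 1 higher (median -0.64). Pcna, the sliding clamp of DNA polymerase, went from 315, 318 and 289 CPM at rest to 143, 141 and 139 CPM after LPS (log2 fold change -1.12, SE 0.09, edgeR adjusted p = 8.4e-08), and the helicase subunit Mcm6 and licensing factor Cdt1 fell by log2 fold changes of -0.91 and -0.85. Among G1 cyclins and inhibitors, 5 of 17 were called higher and 9 lower (29.4% and 52.9%, against 32.9% and 34.0% of all genes). Ccnd2 and Ccnd3 rose, at 1.85 and 1.33, while the CDK inhibitor gene Cdkn1c fell from 8.43 to 1.22 CPM and E2f2 by a log2 fold change of -1.64.

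Macrophage identity was retained in part. Csf1r, the receptor for the growth factor M-CSF, stood at 3559.9, 3827 and 3845 CPM in the resting and 3971, 4288 and 4085 CPM in the LPS-treated libraries and was not called (edgeR adjusted p = 0.078), although DESeq2 and a fit of the 6 siEhd1 libraries alone called it. Of 30 lineage factors and identity genes, 16 were called higher and 8 lower (median 0.53). The Fc gamma receptor genes rose most in that list: Fcgr1 went from 134, 131 and 139.6 CPM at rest to 1131, 1143 and 1132 CPM after LPS (log2 fold change 3.08, SE 0.05, edgeR adjusted p = 1.3e-20), Fcgr2b went from 53.3, 53.4 and 53.9 CPM at rest to 521, 567 and 576 CPM after LPS, and Fcgr4 went from 24.6, 27.2 and 26 CPM at rest to 204, 213 and 213 CPM after LPS. The myeloid factor gene Cebpa fell from 162 to 33.2 CPM (log2 fold change -2.29, SE 0.08, edgeR adjusted p = 6.0e-15).

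Markers of alternative activation were mixed, 7 of 16 higher and 6 lower (median 0.16, and -0.07 by library size alone). Their shares were 43.8% and 37.5%, against 32.9% and 34.0% of all genes. Mrc1 (CD206) stood at 228, 287 and 293 CPM in the resting and 251, 260.4 and 280.2 CPM in the LPS-treated libraries and was not called (edgeR adjusted p = 0.8), while Irf4, a factor of interleukin-4 responses, fell from 8.53 to 0.429 CPM. Of osteoclast markers, 3 of 10 were called higher and 6 lower (30% and 60%). The fusion gene Ocstamp and the integrin gene Itgb3 fell from 8.58 and 19.6 to 0.166 and 0.361 CPM, and Acp5 (tartrate-resistant acid phosphatase) rose from 9.24 to 62.3 CPM.

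Complement and apoptotic cell uptake genes made up a list of 21, of which 9 were called higher and 9 lower (median 0.07, and -0.15 by library size alone). Both shares were 42.9%, against 32.9% and 34.0% of all genes. C3, the central complement protein, went from 51.6, 48.3 and 47.7 CPM at rest to 1932, 2092 and 1958 CPM after LPS (log2 fold change 5.34, SE 0.11, edgeR adjusted p = 3.0e-16), and factor B (Cfb) went from 1.62, 2.31 and 2.3 CPM at rest to 883, 976 and 965 CPM after LPS (log2 fold change 8.82, SE 0.10, edgeR adjusted p = 2.5e-23). Trem2, a lipid receptor of phagocytes, went from 967, 971 and 1028 CPM at rest to 264, 281 and 269 CPM after LPS (log2 fold change -1.87, SE 0.06, edgeR adjusted p = 4.2e-16). Adhesion and matrix genes had 16 of 32 called higher and 12 lower (50% and 37.5%, against 32.9% and 34.0% of all genes). Their median of 0.42 was -0.03 in the fit of the 6 siEhd1 libraries alone. Itga1 stood at 5.06 and Itgb5 at -1.21. Of G protein-coupled and purine receptors, 16 of 23 were called higher and 5 lower (median log2 fold change 1.18). There Entpd1 (CD39), which hydrolyses extracellular ATP, fell by a log2 fold change of -2.09, and Gpr183, an oxysterol receptor, by -3.07.

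Endocytic recycling genes, the setting of EHD1, had 12 of 26 members called higher and 7 lower, with a median of 0.12 that was -0.11 by library size alone. The shares were 46.2% and 26.9%, against 32.9% and 34.0% of all genes. By library size alone 8 were higher and 12 lower. After Ehd1 itself, Rab11fip1, an effector of the recycling GTPase RAB11, rose most clearly, and it went from 21.1, 24 and 22.2 CPM at rest to 69.2, 71.9 and 62.9 CPM after LPS (log2 fold change 1.6, SE 0.08, edgeR adjusted p = 1.2e-13). Rab5c, of early endosomes, rose by 0.83, and Rab4a, of fast recycling, fell from 8.58 to 2.35 CPM. Among sortilin family, retromer and lysosomal sorting genes 12 of 25 were called higher and 7 lower, with a median of 0.06 that was -0.16 by library size alone. Their shares were 48% and 28%, and by library size alone 8 were higher and 13 lower. Sort1 had the largest change of that list. M6pr, a mannose 6-phosphate receptor, rose by 0.97, and the sorting nexins Snx6 and Snx5 moved apart, at 0.89 and -0.71.

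Lysosomal and autophagy genes had 11 of 29 called higher and 9 lower, or 7 and 18 by library size alone. The shares with TMM scaling, 37.9% and 31.0%, lay near the 32.9% and 34.0% of all genes. Ctsz (cathepsin Z) rose from 1071 to 2777 CPM, and Tfeb, a master regulator of lysosome genes, fell from 99.5 to 35.6 CPM (log2 fold change -1.48, SE 0.06, edgeR adjusted p = 2.8e-15).

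Redox and iron genes had more members called higher than lower, where all tested genes had 32.9% higher and 34.0% lower. That margin narrowed by library size alone. Of NRF2, glutathione and thioredoxin genes, 12 of 22 were called higher and 5 lower (median log2 fold change 0.32). By library size alone 10 were higher and 7 lower (median 0.09). Sod2, the mitochondrial superoxide dismutase, went from 49.8, 49.5 and 48.2 CPM at rest to 1331, 1295 and 1247 CPM after LPS (log2 fold change 4.71, SE 0.07, edgeR adjusted p = 3.7e-21), and Hmox1, which degrades haem, went from 297, 324 and 291 CPM at rest to 2634, 2712 and 2518 CPM after LPS (log2 fold change 3.11, SE 0.07, edgeR adjusted p = 4.2e-19), while the cytosolic dismutase Sod1 fell from 256 to 122 CPM and catalase (Cat) by a log2 fold change of -0.56. Of 7 NADPH oxidase genes 5 were called higher, with the catalytic subunit gene Cybb at 1.66, and Nox1 was called lower. Among iron and zinc genes 9 of 17 were called higher and 5 lower, or 8 and 7 by library size alone. The iron exporter gene Slc40a1 (ferroportin) went from 29.9, 35.9 and 36.7 CPM at rest to 12.3, 11 and 11.5 CPM after LPS (log2 fold change -1.55, SE 0.18, edgeR adjusted p = 1.5e-05), the zinc and iron importer gene Slc39a14 rose by 2.51, and Slc39a10 fell by a log2 fold change of -1.98. Of genes of the unfolded protein and integrated stress responses, 14 of 26 were called higher and 7 lower (median log2 fold change 0.32). By library size alone 12 were higher and 10 lower (median 0.09). Manf, Xbp1 and the chaperone gene Hspa5 rose, at 1.55, 0.98 and 0.98.

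The siControl cells, which share no library with the siEhd1 cells, were then set beside them to ask where the LPS response differed. Most of the response was common. With siControl 4237 genes were called higher (34.8%) and 4132 lower (34.0%). Genes called higher in both numbered 3584, or 89.5% of the siEhd1 and 84.6% of the siControl set, and genes called lower in both numbered 3478, or 84.0% and 84.2%. Only 9 and 23 genes were called in opposite directions. The log2 fold changes correlated across genes (Pearson r 0.956, slope 0.954), as a description, since genes are not independent replicates.

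The difference between the LPS effects passed the test for 379 genes in the positive direction (3.12%; 33 of them at least 2-fold, 0.271%) and 356 in the negative (2.93%; 47 at least 2-fold, 0.386%). Among these 735 genes, 181 rose in both and rose more with siEhd1, 121 rose in both and rose less, 65 fell in both and fell more, 132 fell in both and fell less, 32 were called in opposite directions, and 204 were not called in both. Single libraries mattered to these counts. Without replicate 1 of the resting siEhd1 group, 243 were positive and 210 negative, and the negative count was 209 without replicate 1 of the resting siControl group, 221 without replicate 2 of the resting siEhd1 group, and 235 and 236 without replicate 1 and 3 of the LPS-treated siEhd1 group.

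**Figure D4:**
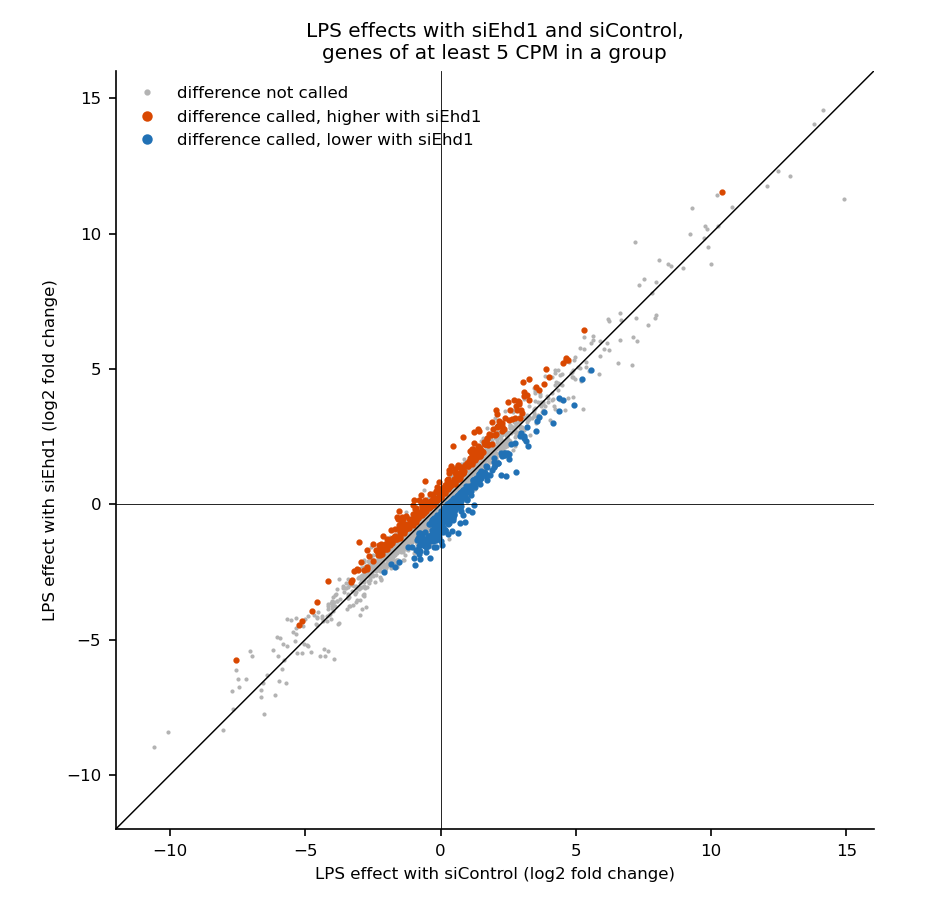
LPS effect with siEhd1 (y axis) against LPS effect with siControl (x axis), as log2 fold changes, for the 9839 genes whose mean reached 5 CPM in any group; the diagonal marks equal effects. Orange and blue points are the 719 genes of this set whose difference was called, and most genes lie close to the diagonal.

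Interferon-stimulated genes had larger LPS effects with siEhd1. Of 70 tested, 51 were called higher and 0 lower in the difference, with a median of 0.57 on the log2 scale. The median LPS effect of the list was 1.95 with siEhd1 and 1.37 with siControl. Irf7 shows where the gap lay. It stood at 169, 179 and 182 CPM in the resting and 2301, 2469 and 2173 CPM in the LPS-treated libraries with siEhd1, and measured 329, 301 and 349 CPM at rest and 2294, 2509 and 2482 CPM after LPS with siControl, so resting levels differed and LPS-treated levels overlapped (difference 0.81, SE 0.09, edgeR adjusted p = 1.7e-05). Oasl2 and Oas3, of the antiviral oligoadenylate synthetase family, had differences of 0.82 and 0.81.

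Among the largest positive differences were those of Ifit3b (1.7, SE 0.20, edgeR adjusted p = 6.0e-04), Ifit3 (1.41, SE 0.20, edgeR adjusted p = 0.0033) and Ifit2 (1.4, SE 0.26, edgeR adjusted p = 0.015), which restrict viral translation, and of Pydc3 (1.44, SE 0.18, edgeR adjusted p = 2.0e-04). Ifit3 and Ifit3b are near-identical copies, as are Pydc3 and Pydc4, and their reads may have been split. Tnfsf10, the death ligand TRAIL, measured 1.07, 1.45 and 1.7 CPM at rest and 7.96, 7.99 and 7.86 CPM after LPS with siEhd1 and 2.6, 2.76 and 2.5 CPM at rest and 4.83, 4.36 and 4.85 CPM after LPS with siControl (difference 1.65, SE 0.21, edgeR adjusted p = 7.5e-05). Of 16 guanylate-binding and immunity-related GTPase genes, 9 were called higher in the difference, and 5 without replicate 1 or 2 of the resting siEhd1 group. Iigp1 had a difference of 1.5, and its call was lost without either of those libraries (adjusted p up to 0.072).

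Outside the interferon genes, Mamdc2 had the largest positive difference (1.81, SE 0.27, edgeR adjusted p = 0.0011), and Pdgfc, a growth factor gene, and Flt1, a receptor of VEGF, had 1.45 and 1.6. The call for Flt1 was lost without replicate 1 of the LPS-treated siControl group or replicate 1 or 3 of the LPS-treated siEhd1 group (adjusted p up to 0.079). Apoe fell less with siEhd1: it measured 2959, 3374 and 3589 CPM at rest and 1161, 1229.6 and 1238 CPM after LPS with siEhd1 and 6112, 5261 and 5631 CPM at rest and 1166, 991 and 865 CPM after LPS with siControl (difference 1.04, SE 0.13, edgeR adjusted p = 2.1e-04). Abca1 had a difference of 0.41, with means going from 394 to 1407 CPM with siEhd1 and from 573 to 1540 CPM with siControl. Its resting level was thus lower with siEhd1, and its LPS-treated libraries overlapped between the siRNAs. In the LXR list 5 of 22 genes were called higher in the difference and 0 lower. Fc receptor genes Fcgr1 and Fcgr4 had differences of 0.92 and 0.75. Irg1, with a difference of 1.16, lost its call by limma-voom, without replicate 2 of the resting siControl group and without replicate 1 of the resting siEhd1 group (adjusted p up to 0.058).

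Mitotic genes had more negative LPS effects with siEhd1. Of 32 tested, 21 were called lower in the difference and 0 higher, with a median of -0.83. The LPS effect had a median of -1.34 with siEhd1 and -0.53 with siControl, where 20 members were called lower and 2, Aurka and Incenp, higher. Mki67 measured 168, 183 and 148 CPM at rest and 88.6, 80.7 and 86.7 CPM after LPS with siEhd1 and 47.1, 64.5 and 72.1 CPM at rest and 65.9, 68.6 and 70.8 CPM after LPS with siControl, so siEhd1 cells stood higher in both states and fell after LPS, while the siControl groups overlapped (difference -1.12, SE 0.19, edgeR adjusted p = 0.0056). Nuf2, of the kinetochore, had a difference of -1.54, the mitotic kinase gene Pbk -1.42, Sgol1 (shugoshin) -1.35 and Aurka -1.02. DNA replication genes had 6 of 34 called lower in the difference, a count that ran from 0, without replicate 1 of the resting or replicate 1 or 3 of the LPS-treated siEhd1 group, to 15, without replicate 3 of the resting siControl group.

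**Figure D5:**
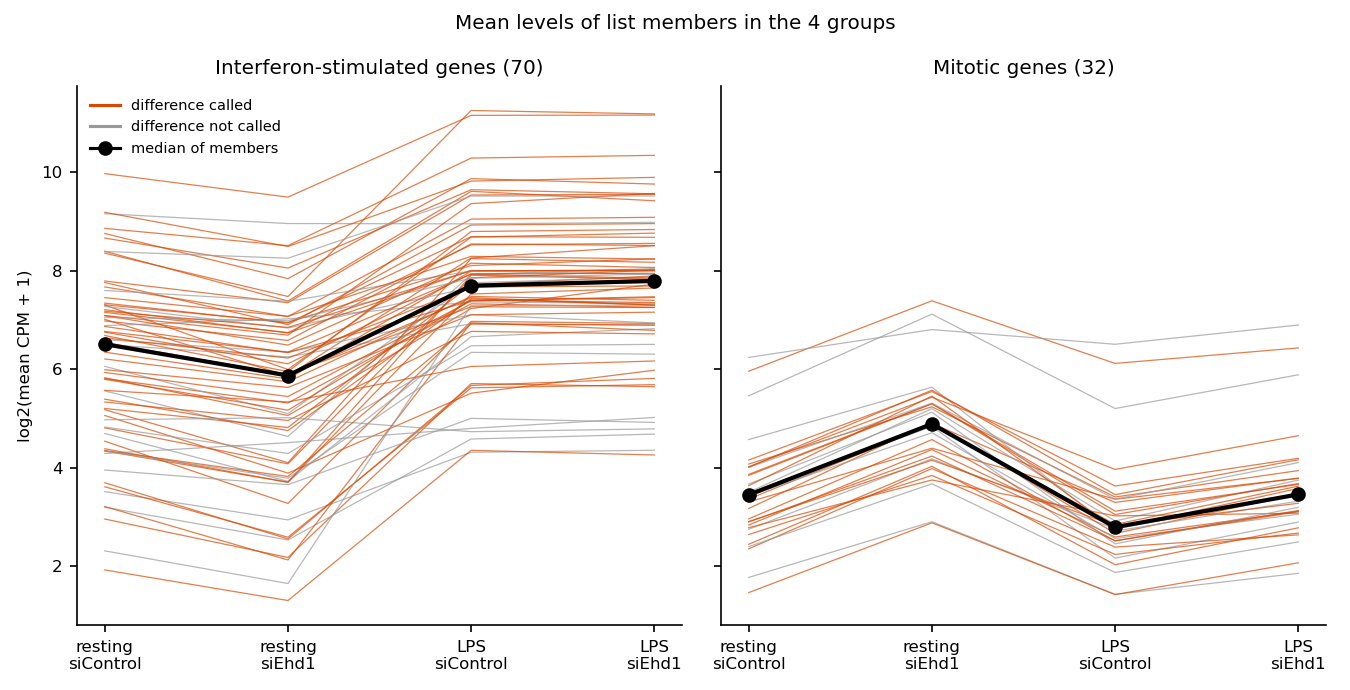
Mean level of each tested member of the interferon-stimulated (70) and mitotic (32) lists in the 4 groups, as log2(mean CPM + 1), orange where the difference between LPS effects was called and grey where it was not; black shows the median of members. The median interferon-stimulated level dips from resting siControl to resting siEhd1 and is close between the LPS-treated groups, and the median mitotic level is highest in resting siEhd1 cells.

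Other large negative differences were in genes outside the cell cycle. Slc7a5, a transporter of large neutral amino acids, measured 7.64, 7.81 and 6.56 CPM in resting and 3.39, 3.49 and 3.73 CPM in LPS-treated cells with siEhd1, and measured 1.8, 2.28 and 2.9 CPM at rest and 4.24, 3.67 and 3.09 CPM after LPS with siControl (difference -1.71, SE 0.23, edgeR adjusted p = 1.1e-04). Its LPS effect was negative with siEhd1 (-1.06) and positive with siControl (0.65). Mthfd2, of mitochondrial one-carbon metabolism, rose less with siEhd1 (difference -1.57, SE 0.28, edgeR adjusted p = 0.011), asparagine synthetase (Asns) had a difference of -1.44, and Atf4, which controls such genes, of -0.51. Ctps, a CTP synthase, and Cass4, an adhesion scaffold, had differences of -1.39 and -1.35. Of the stress response list 5 of 26 were called lower in the difference and 0 higher. The collagen IV genes Col4a1 and Col4a2 had -1.59 and -1.58, and the call for Col4a1 was lost in 13 of 18 alternatives.

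Several response genes did not pass the test of the difference. Ccl2, Cxcl10 and Ptgs2 had differences of -1.75 (edgeR adjusted p = 0.099), 0.73 (0.19) and -1.24 (0.066), and each passed under at least 1 alternative, DESeq2 for Ccl2 and Ptgs2, the replicate block and the removal of replicate 3 of the resting siEhd1 group for Cxcl10 and Ptgs2, and for Ptgs2 also the absence of a filter and the removal of replicate 1 of the LPS-treated siControl group. Tnf had a difference of -0.41 (edgeR adjusted p = 0.043), a call lost in 11 of 18 alternatives. None of the 26 endocytic recycling or 19 TLR4 complex genes tested was called in the difference, where 3.12% and 2.93% of all genes were called in either direction, so these counts set neither list apart. In 3 alternatives 1 endocytic recycling gene was called, and in 5 alternatives 1 TLR4 complex gene, not necessarily the same gene each time.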

How the data were processed

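PolyA RNA of mouse bone marrow-derived macrophages was sequenced in 12 libraries, 4 groups of 3. The authors deposited whole-number counts per gene symbol in 2 tables, 1 per state, with 24421 genes in each, and the tables were joined by symbol. The submitters' processing notes name mm10 as the build and list STAR 2.7.6a, featureCounts 2.20.0, Trim Galore 0.6.3, cutadapt, FastQC 0.10.1, R 4.4.2 and DESeq2 1.46.0, without the step each was used for. How reads were assigned by strand or among copies is not given in the sources used here. No column was left out.

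Totals per library ran from 18572725 to 22545272 counts, and 14119 to 14753 genes were detected in each. Counting intervals and floors cover counting error only.

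All 12 libraries entered 1 edgeR 4.0.16 fit (R 4.3.3, limma 3.58.1) with a mean per group, TMM scaling, a low-count filter by group (filterByExpr, minimum count 10 and minimum total 15; 12164 of 17270 genes with a count were kept), robust quasi-likelihood dispersions and 8 residual degrees of freedom. Contrasts were LPS-treated minus resting with siEhd1, the same with siControl, and their difference, each with Benjamini-Hochberg adjustment and a threshold of 0.05. SE is the absolute log2 fold change over the square root of F. The fit recovered changed genes in counts simulated from these libraries, where few, well-expressed genes changed in 1 group, equally up and down. Most genes were called in the data themselves, so the simulation does not speak to the choice of scaling. Replicate numbers were not taken to pair libraries. Deviations from the group mean in the resting and LPS-treated siEhd1 groups correlated at 0.007, 0.25 and 0.097 for equal numbers. For unequal numbers they correlated at -0.19 to 0.11. These values do not settle whether the numbers pair libraries, and a replicate block was fitted as an alternative.

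The comparison, the gene lists, the marker lists and the alternatives were chosen with earlier results of these data known, so no list is independent evidence. Genes named were Ehd1 to Ehd4 and Sort1, 25 response genes whether called or not, the 15 largest changes per direction of at least 5 CPM without overlap, the 10 largest differences per direction, the 5 highest genes with 0 resting counts, up to 3 members per list by smallest p with up to 2 of opposite direction, and up to 2 per list called in the difference. The rankings by size skipped predicted genes, pseudogenes and genes of mitochondria, histones and ribosomal proteins. Coordinates are from GENCODE M21 (GRCm38), matched for 256 of 260 named genes; promoters are from RefSeq on GRCm38.p6. Levels of a gene with 0 counts in a group are compared with a floor of 3 counts over the group; list medians were the same with such genes at that bound. Alternatives were RLE scaling, library size alone, no filter, DESeq2 1.42.0, limma-voom, the 6 siEhd1 libraries alone, a replicate block and the removal of each library.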

Additional observations from a re-analysis of the deposited data

Results flagged for a closer look

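The LPS effect differed between siEhd1 and siControl, by the test of the difference itself, for 33 genes whose values are given one by one, and further members of the lists passed as well. Positive differences, where the LPS-treated to resting ratio was higher with siEhd1, were 1.81 for Mamdc2, 1.7 for Ifit3b, 1.65 for Tnfsf10, 1.6 for Flt1, 1.5 for Iigp1, 1.45 for Pdgfc, 1.44 for Pydc3, 1.41 for Ifit3, 1.4 for Ifit2, 1.36 for Olfr56, 1.16 for Irg1, 0.92 for Fcgr1, 0.75 for Fcgr4, 0.82 for Oasl2, 0.81 for Oas3, 1.04 for Apoe, 0.81 for Irf7, 0.41 for Abca1 and 0.41 for Sort1, on the log2 scale. Negative differences were -1.71 for Slc7a5, -1.59 for Col4a1, -1.58 for Col4a2, -1.57 for Mthfd2, -1.54 for Nuf2, -1.44 for Asns, -1.42 for Pbk, -1.39 for Ctps, -1.35 for Sgol1, -1.35 for Cass4, -1.12 for Mki67, -1.02 for Aurka, -0.51 for Atf4 and -0.41 for Tnf. The resting groups of the 2 siRNAs did not overlap for Abca1, Apoe, Fcgr1, Irf7, Mki67, Slc7a5, Sort1 and Tnfsf10, which is not a full list. The share of all genes with such a gap at rest was not counted, so the gap by itself sets none of these genes apart. The call for Olfr56 was lost in 7 of 18 alternatives, each the removal of a single library (adjusted p up to 0.12).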

How the results depend on the processing

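Scaling by library size alone moved the LPS effect with siEhd1 to 2499 genes higher and 6244 lower. The other scalings, tools and filters left between 3863 and 4123 higher and between 3881 and 4174 lower. Removing a library gave 3792 to 4108 higher and 3833 to 4248 lower for the LPS effect, and 243 to 429 positive and 209 to 418 negative for the difference. The difference counts fell by more than 1.5 times without replicate 1 of the resting siEhd1 group (243 positive, 210 negative) and, for negative calls, without replicate 1 of the resting siControl (209), replicate 2 of the resting siEhd1 (221) or replicate 1 or 3 of the LPS-treated siEhd1 group (235 and 236). The cause was not tested. With a replicate block, 3940 genes were higher and 4064 lower, 97.9% of the calls remained in direction, and the difference had 342 positive and 295 negative calls. Among named genes, 18 values of the LPS effect changed sign, all in genes with small changes: by library size alone Atp6v1h (-0.21), Cd36 (-0.041), Csf1r (-0.087), Idh1 (-0.14), Rxra (-0.032) and Tlr8 (-0.21); without a filter Hsd17b7 (0.0015); and over the removal of single libraries Atp6v1h (-0.014 to 0.068), Hsd17b7 (-0.067 to 0.091), Mrc1 (-0.14 to 0.035) and Tlr8 (-0.035 to 0.0501). At this depth, genes under the filter, such as Ifnb1 and Il12b, allow counts only.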
